A study of Mus musculus with 10 samples.

Results

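Liver levels of 6 glucocorticoid-responsive genes (Tat, Tsc22d3, Fkbp5, Sgk1, Zbtb16 and Dusp1) and 3 C/EBP transcription factors (Cebpa, Cebpb and Cebpd) were measured by poly-A RNA sequencing in mice. These 9 genes were chosen by symbol with earlier results of these data known, as were the gene lists below. Shares of all genes set beside their counts are therefore descriptions and not tests of enrichment. The 9 genes are among 41388 genes listed in each liver's table. All 9 passed the filter on low values that left 13444 genes for testing. There were 2 WT Fed mice, 3 WT Fasting mice and 5 NAMPT LKO Fasting mice, all of strain C57B/6J and aged 12 wk. Every mouse carried LoxP-flanked Nampt on both alleles (NAMPT fl/fl): NAMPT LKO mice also carried Albumin-cre, which deletes Nampt in hepatocytes, and WT mice were littermates without Cre. By the labels, fasting lasted 24 h, and WT Fed mice were fasted for 22 h and then refed for 2 h, so they were refed rather than undisturbed; the paper instead gives a shorter fast. No fed NAMPT LKO mice were among these samples, so the response to feeding was measured in WT mice alone. No mice were left unfasted, so a rise or fall on fasting below means WT Fasting against refed WT Fed livers. A change caused by fasting and a change caused by refeeding cannot be told apart in it.

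Glucocorticoids are adrenal steroid hormones whose release increases during fasting. In hepatocytes they bind the glucocorticoid receptor, which is kept ready for hormone by Hsp90 and its co-chaperones, enters the nucleus and binds palindromic response elements in DNA. C/EBP proteins are basic leucine zipper factors: C/EBPα maintains the genes of the mature hepatocyte, while C/EBPβ and C/EBPδ are inducible by cAMP, glucocorticoids and cytokines and act on metabolic and acute phase genes.

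Promoter sequences are shown for 3 members whose RNA rose on fasting. Sgk1 is shown for a full glucocorticoid response element, Dusp1 for a full cAMP response element and Cebpb for repeated cAMP half-sites. Tsc22d3, which also rose, held single half-sites only and is not printed. RefSeq windows (GRCm38.p6) ran from 250 bases before to 50 bases after a transcript start and were found for 7 of the 9 members, in 14 windows; none was found for Zbtb16 and Cebpd. Capitals mark every exact match, on either strand, to the glucocorticoid response element (AGAACA and TGTTCT parted by any 3 bases), its half-site TGTTCT, the C/EBP motif TTGCNNAA, the cAMP response element TGACGTCA, its half-site TGACG, or the TATA box TATAAA. Each full element contains its half-sites, so those matches overlap. Each sequence below reads 5′ to 3′ on the strand of its gene.
Sgk1, upstream start, chr10:21993640-21993939, plus strand: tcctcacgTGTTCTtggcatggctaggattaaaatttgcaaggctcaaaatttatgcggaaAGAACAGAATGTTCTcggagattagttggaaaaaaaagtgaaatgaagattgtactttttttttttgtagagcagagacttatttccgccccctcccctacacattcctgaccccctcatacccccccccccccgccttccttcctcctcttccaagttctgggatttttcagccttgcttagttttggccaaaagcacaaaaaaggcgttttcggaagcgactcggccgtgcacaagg
Dusp1, chr17:26508423-26508722, minus strand: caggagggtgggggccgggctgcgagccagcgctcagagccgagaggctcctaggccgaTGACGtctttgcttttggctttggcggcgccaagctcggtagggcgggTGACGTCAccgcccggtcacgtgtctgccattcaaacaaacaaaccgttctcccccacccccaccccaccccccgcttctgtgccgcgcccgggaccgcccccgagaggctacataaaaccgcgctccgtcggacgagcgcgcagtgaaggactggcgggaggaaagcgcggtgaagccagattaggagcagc
Cebpb, chr2:167688665-167688964, plus strand: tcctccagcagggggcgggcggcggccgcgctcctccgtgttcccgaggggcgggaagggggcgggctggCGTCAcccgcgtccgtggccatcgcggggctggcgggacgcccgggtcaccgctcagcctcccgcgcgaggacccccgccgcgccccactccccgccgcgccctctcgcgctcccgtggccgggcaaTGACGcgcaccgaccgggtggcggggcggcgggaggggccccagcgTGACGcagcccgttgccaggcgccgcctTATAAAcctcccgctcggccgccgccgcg

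The Sgk1 window held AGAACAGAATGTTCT at chr10:21993701-21993715, 189 bases before its start and 965 bases before the most downstream RefSeq start of the gene. This full palindrome was found in 3 of 32851 RefSeq promoter windows (0.00913%), and Sgk1 was the only member with it. In the Dusp1 window TGACGTCA began 143 bases before the start; 1.79% of all windows held it, and no other member did. The Cebpb window held TGACG at 3 places, a half-site present in 20.8% of all windows. It also held TATAAA, present in 13.6%, which began at base 22 of the transcript and so lay downstream of the start. Half-site TGTTCT was found for 2 members, Tsc22d3 and Sgk1 (19% of all windows), and TTGCNNAA for Sgk1 alone (10.8% of all windows). Sgk1 had 6 windows and Tsc22d3 had 3, against 1 for each other member with a window. More windows give more places for a match, so counts by member and shares by window are unlike measures. A match is a description of letters and not a measured binding site.

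The 10 libraries held 30603080 to 43434139 counts. Nampt was at 11.8 to 15.3 CPM in the 5 NAMPT LKO livers and at 63 to 141 in the 5 WT livers, as labelled. Hepatocyte markers summed to 69732 to 120355 CPM across all livers, while pancreas markers were at or below 0.31 CPM. NAMPT LKO mouse 5 stood apart: 21.1% of its counts were on mitochondrial genes, against 7.42 to 12.9% in the other livers, and its gene levels followed GC content (Spearman's rho of -0.563 across 13369 genes, against -0.0324 to 0.266 elsewhere). In whole liver, a change in RNA per cell and a change in the number of cells of a type cannot be told apart. The labels do not say whether mice shared a litter or a day, so p-values cover the spread between these livers.

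Levels are given per liver in CPM scaled by the trimmed mean of M-values (TMM), reads scaled to a common library total and corrected for library composition. By length-corrected RPKM, Tat, the liver enzyme that begins tyrosine breakdown, was the most abundant member in each group, with means of 492 RPKM in WT Fed, 925 in WT Fasting and 699 in NAMPT LKO Fasting livers. Cebpa followed, with 304, 157 and 166 RPKM, and Cebpb was next with 45.5, 121 and 87.7 RPKM. Sgk1 was the lowest in every group, at 2.78, 5.17 and 3.77 RPKM. In WT Fed livers all 8 pairs of neighbours in this order had ranges apart, with only 2 livers behind each range. In WT Fasting livers the neighbours Cebpa and Cebpb overlapped, as did each neighbouring pair from Cebpd through Fkbp5, Dusp1 and Zbtb16 to Sgk1. In NAMPT LKO livers Tsc22d3 and Cebpd overlapped as well.

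**Figure D1:**
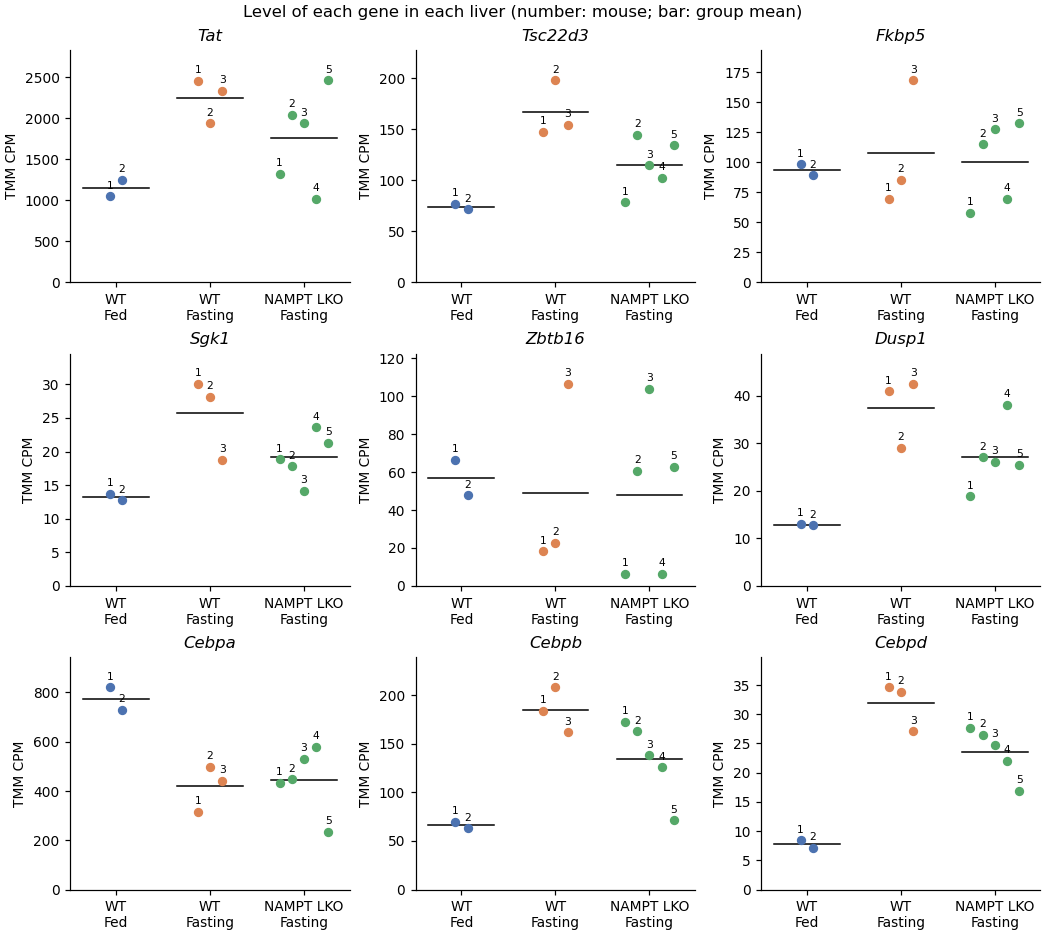
TMM-scaled CPM (linear axis from 0) of each member in each of the 10 livers, by group; points are mice, numbers are mouse numbers and the bar is the group mean. Cebpd was at 7.12 to 8.43 in WT Fed livers and at 16.9 to 34.6 in all fasted livers, while Zbtb16 spanned 6.23 to 104 within NAMPT LKO livers.

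In WT livers 5 of the 9 members rose on fasting over the refed state, and none fell by the test. Cebpd rose 4.09-fold, Dusp1 2.91-fold, Cebpb 2.78-fold, Tsc22d3 2.25-fold and Sgk1 1.94-fold. Of all 13444 genes, 7.04% passed this threshold, an adjusted p of at most 0.05 in edgeR's quasi-likelihood test, and 2.68% passed it as higher. Tat and Cebpa also lay apart between the groups without passing, and Fkbp5 and Zbtb16 overlapped. Ranges lay apart for 7 of the 9 members, against 49.7% of all genes. Leaving out either WT Fed mouse left Cebpd as the 1 member called, leaving out WT Fasting mouse 2 left Dusp1 and Cebpd, and leaving out WT Fasting mouse 1 lost Sgk1.

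Among the glucocorticoid-responsive genes, Tsc22d3 (glucocorticoid-induced leucine zipper, GILZ, an anti-inflammatory protein; chrX:140539528-140600659) was at 76.7 and 71.7 CPM in the WT Fed livers and at 147, 198 and 154 in the WT Fasting livers. Both fed livers lay below all fasted WT livers. The log2 fold change was 1.17 (SE 0.24, adjusted p = 0.016). Dusp1 (chr17:26505590-26508519), a phosphatase that switches off MAP kinases, was at 13.02 and 12.77 CPM in WT Fed livers and at 41.0, 29.1 and 42.5 in WT Fasting livers. Its groups were also apart, with mouse 2 the lowest of the fasted WT livers, and the log2 fold change was 1.54 (SE 0.26, adjusted p = 0.00704).

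Sgk1 (chr10:21882184-21999903), a kinase that regulates ion transport and the gene with the full palindrome above, was at 13.7 and 12.8 CPM in WT Fed livers against 30.1, 28.2 and 18.8 in WT Fasting livers. Mouse 3 was the lowest of the fasted livers and still above both fed livers (log2 fold change 0.96, SE 0.24, adjusted p = 0.0355). Tat (chr8:109990437-109999803) was at 1046 and 1250 CPM in WT Fed and at 2457, 1937 and 2330 in WT Fasting livers. Its groups were apart and its 1.95-fold difference was close to that of Sgk1, but the adjusted p was 0.0971 (log2 0.96, SE 0.32), so it did not pass.

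Fkbp5 and Zbtb16, both classic glucocorticoid targets, did not follow the other 4. Fkbp5 (chr17:28399095-28517524) encodes a co-chaperone that lowers the receptor's affinity for hormone; it was at 98.5 and 89.1 CPM in WT Fed livers and at 69.5, 85.6 and 169 in WT Fasting livers. Fasted mice 1 and 2 lay below both fed livers and mouse 3 above them, and the log2 difference was 0.20 (SE 0.41, 95% interval -0.70 to 1.10). Zbtb16 (PLZF, a zinc finger transcription factor; chr9:48654311-48835945) was at 66.5 and 47.7 CPM in WT Fed livers and at 18.3, 22.8 and 107 in WT Fasting livers. The same 2 fasted mice lay below the fed livers and mouse 3 above, so the log2 difference of -0.21 had an interval of -2.60 to 2.17, which leaves a large change in either direction possible.

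Of the C/EBP factors Cebpd and Cebpb rose, and Cebpa was lower without passing the test. Cebpd (chr16:15887286-15888466) was at 8.43 and 7.12 CPM in WT Fed livers and at 34.6, 33.9 and 27.1 in WT Fasting livers, with no overlap (log2 fold change 2.03, SE 0.22, adjusted p = 0.000733). It ranked 30th of all genes by p and passed the threshold in all 14 alternative analyses of this comparison. Cebpb (chr2:167688915-167690418) was at 69.8 and 62.9 CPM against 184, 208 and 162, again apart (log2 1.48, SE 0.31, adjusted p = 0.0168). Cebpb overlaps Tmem189 on the opposite strand over 312 bases; whether counting used strand was not stated, so reads in that stretch are uncertain.

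Cebpa (chr7:35119293-35121926) showed the reverse order: 821 and 731 CPM in WT Fed livers and 316, 499 and 441 in WT Fasting livers. Every fasted WT liver was below both fed livers, with a log2 difference of -0.89 (SE 0.31), but the adjusted p of 0.117 did not pass. Measured per length within each liver, Cebpb RNA was 0.149 and 0.151 times Cebpa RNA in the WT Fed livers and 1.02, 0.729 and 0.642 times in the WT Fasting livers. In NAMPT LKO livers this ratio was 0.698, 0.638, 0.455, 0.38 and 0.534. All 8 fasted livers were above both fed livers, and only NAMPT LKO mouse 1 lay within the range of the WT Fasting livers. This ratio was described and not tested.

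**Figure D2:**
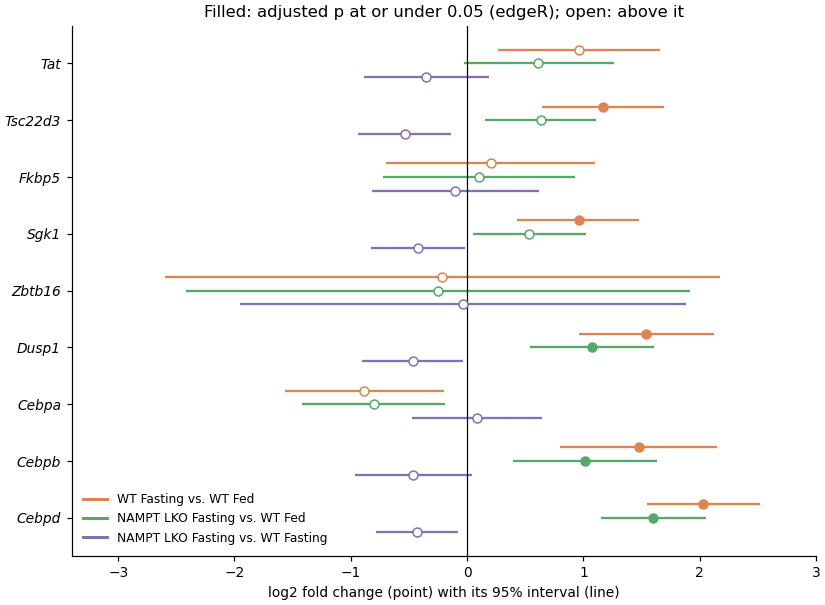
log2 fold change of each member (point) with its 95% interval (line) in the 3 comparisons, from edgeR's quasi-likelihood fit over 10 livers; filled points passed an adjusted p of 0.05. Cebpd, Cebpb and Dusp1 were filled in both comparisons with WT Fed, and no point was filled for NAMPT LKO Fasting against WT Fasting.

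With Nampt deleted in hepatocytes, no member passed the threshold in the fasted state. In NAMPT LKO Fasting against WT Fasting livers, 0 of 9 members were called, where 0.00744% of all genes were: the single call was Nampt itself. By other tools, 0 members were called with edgeR's exact test, limma voom or DESeq2. The estimates were nonetheless below 0 for 8 of the 9 members, and for all 6 glucocorticoid-responsive genes, while 50.1% of all genes were above 0; the sign turned under some alternatives for Fkbp5, Zbtb16 and Cebpa. At an unadjusted p under 0.05 in edgeR's quasi-likelihood test 4 members were lower (Tsc22d3, Sgk1, Dusp1 and Cebpd), with 3.31% of all genes lower by that rule. The WT Fasting livers are shared with the fasting comparison above, so the estimates of both comparisons are not independent.

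Tsc22d3 was the only member whose fasted groups did not overlap, where 3.99% of all genes did not and 2.12% lay lower without overlap. Its NAMPT LKO livers were at 78.3, 145, 115, 102 and 134 CPM, all below the lowest WT Fasting liver at 147, although mouse 2 was within 3 CPM of it. The log2 difference was -0.53 (SE 0.18, 95% interval -0.94 to -0.14, adjusted p = 0.798). Cebpd was at 27.7, 26.5, 24.8, 22.1 and 16.9 CPM in NAMPT LKO livers, of which mouse 1 alone exceeded the lowest WT Fasting liver (27.1). Its log2 difference was -0.43 (SE 0.16, interval -0.79 to -0.08, adjusted p = 0.798).

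Dusp1 was at 18.8, 27.1, 26.2, 38.1 and 25.5 CPM in NAMPT LKO livers, with mouse 4 alone inside the WT Fasting range (log2 -0.47, interval -0.90 to -0.03, adjusted p = 0.827). Sgk1 was at 18.9, 17.8, 14.2, 23.6 and 21.3 CPM, overlapping WT Fasting mouse 3, with a log2 difference of -0.42 (interval -0.83 to -0.02, adjusted p = 0.827). Cebpb was at 173, 163, 138, 126 and 71.2 CPM; the first pair of mice lay within the WT Fasting range and mouse 5 was near the WT Fed level. Its log2 difference was -0.46 (interval -0.97 to 0.04).

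Tat was at 1320, 2043, 1936, 1021 and 2462 CPM in NAMPT LKO livers, from below the lower WT Fed liver to just above the highest WT Fasting liver (log2 -0.35, interval -0.89 to 0.19). Cebpa was at 433, 447, 532, 580 and 234 CPM, on both sides of the WT Fasting range, with a log2 difference of 0.09 (interval -0.47 to 0.64). For Fkbp5 and Zbtb16 the differences were -0.10 (interval -0.81 to 0.61) and -0.03 (interval -1.95 to 1.88). These intervals do not show that the genotypes were alike.

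Against WT Fed livers, NAMPT LKO Fasting livers had 3 of 9 members called, all higher: Cebpd 3.03-fold (log2 1.60, SE 0.21, adjusted p = 0.00115), Dusp1 2.10-fold (log2 1.07, SE 0.24, adjusted p = 0.0186) and Cebpb 2.02-fold (log2 1.01, SE 0.28, adjusted p = 0.0418). Of all genes 11.2% were called in this comparison, and 4.65% were called as higher. Tsc22d3 (1.55-fold, adjusted p = 0.0899) and Sgk1 (1.45-fold, adjusted p = 0.148) lay above both fed livers in all 5 NAMPT LKO livers and did not pass. Ranges were apart for 6 of the 9 members, Cebpa lower and the other 5 higher, against 33.5% of all genes, and 6 members had an unadjusted p under 0.05 in edgeR's fit, against 26.1%. Cebpa differed by -0.80 (adjusted p = 0.093), and Tat by 0.61 (adjusted p = 0.213) with overlap. Both genotype and feeding differ here, and WT Fed livers are shared with the first comparison. Without either WT Fed mouse Cebpd was the single member called, and the Cebpb call was also lost without NAMPT LKO mouse 1, 2, 3 or 4, with library size alone and in a fit of only the groups compared, so that it passed in 8 of 16 alternatives. Without NAMPT LKO mouse 1 the calls were Tsc22d3, Dusp1 and Cebpd, and without mouse 5 they were Dusp1, Cebpa, Cebpb and Cebpd. Cebpd passed in all 16 alternative analyses.

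Within NAMPT LKO livers the members ranked the mice differently. Zbtb16 was at 6.23, 60.8, 104, 6.41 and 62.7 CPM, a 16.7-fold range, and mice 1 and 4 were both far below every other liver of the series, the next being WT Fasting mouse 1 at 18.3. The lowest count behind these values was 192 reads, so the gap between mice 1 and 4 and the other mice is beyond counting error, while mice 1 and 4 cannot be ordered between themselves, nor mice 2 and 5. Fkbp5 was at 57.9, 115, 128, 69.7 and 133 CPM, again with mice 1 and 4 lowest. Those mice were also the lowest pair for Tat and Tsc22d3, so 4 of the 6 glucocorticoid-responsive genes shared this pair, as against 11.3% of all genes tested. For Sgk1 and Dusp1, mouse 4 was instead the highest of the 5. The pair was noticed in the values and was not tested.

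Other genes separated the same mice. Lpin1, the phosphatidate phosphatase and transcriptional coactivator, was at 180, 477, 513, 48.5 and 557 CPM in NAMPT LKO mice 1 to 5, and it was at 509 in WT Fasting mouse 3, the fasted WT liver with the most Zbtb16 and Fkbp5. Of the 20 other glucocorticoid-inducible genes tested, mice 1 and 4 were the lowest pair for 6. The same pair was lowest for 4 of 6 endothelial markers, the same share as among the glucocorticoid-responsive members. It was also lowest for 6 of 16 receptor, chaperone and steroid-handling genes and for 4 of 12 clock output genes. The lowest pair of mice 1 and 4 was thus not particular to the members. Red blood cell markers were also lowest in them, for 4 of 5 genes, and summed to 332, 940, 863, 342 and 1294 CPM in mice 1 to 5. The Kupffer cell and macrophage markers summed highest in WT Fasting mouse 3 (480 CPM) and in NAMPT LKO mouse 3 (371 CPM), the livers with the highest Zbtb16 of their groups, but they did not separate mice 1 and 4, at 168 and 291 CPM, from mice 2 and 5, at 293 and 236. Per2, a clock gene with the same lowest pair, was at 8.85, 15.0, 12.7, 8.69 and 13.2 CPM. Dbp, a clock output gene without that pair, was at 15.6, 13.6, 6.06, 13.2 and 9.52 CPM. The part of blood, macrophages or the hour of collection in these values was not tested.

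The C/EBP factors did not share that order. In all 3 of them NAMPT LKO mouse 5, the library with the GC trend, was the lowest fasted liver. It was at 234 CPM for Cebpa, 71.2 for Cebpb and 16.9 for Cebpd, while its Tat was the highest of its group. Over all genes tested, mouse 5 was in the lowest pair of NAMPT LKO livers with mouse 2 for 14.4% and with mouse 3 for 10.7%. With mouse 1 it was so for 10.6%, and with mouse 4 for 10%. These shares count the lowest pair of NAMPT LKO livers and not the single lowest fasted liver. They do not show how often mouse 5 was the lowest over all genes. Without this mouse the NAMPT LKO minus WT Fasting log2 differences were 0.25 for Cebpa, -0.30 for Cebpb and -0.33 for Cebpd. With each library's GC trend removed, they were 0.18, -0.33 and -0.41 in the same order. NAMPT LKO mouse 3 had an acute phase pattern, with Saa1 at 3276 CPM where its group mates had 8.4 to 45.5, and yet its Cebpb (138 CPM) and Cebpd (24.8 CPM) were the middle values of the 5.

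**Figure D3:**
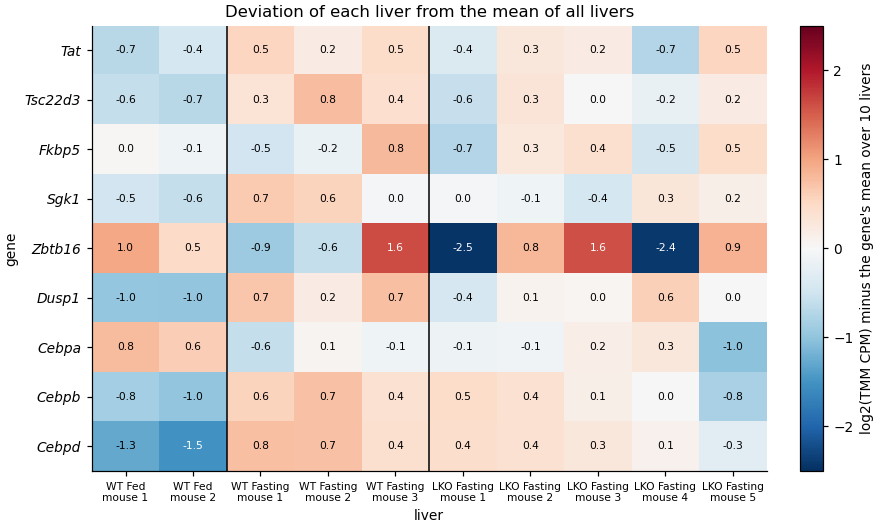
Deviation of each liver from the mean of 10 livers for each member, as log2 of TMM-scaled CPM; red is above the gene's mean, blue below, and lines part the groups. Zbtb16 is dark blue in NAMPT LKO mice 1 and 4 (6.23 and 6.41 CPM), and the 3 C/EBP genes are lowest among fasted livers in NAMPT LKO mouse 5.

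The genes whose pattern was most like 8 of the members were found by the root mean square difference of centred log2 levels over the 10 livers, among 9138 genes. For Cebpa it was Cdc42ep1 (0.162) and for Fkbp5 Rapgef5 (0.174). Cebpb was nearest to Sun2 (0.196), Tat to Yod1 (0.197) and Sgk1 to Slc27a1 (0.207). Dusp1 was nearest to Pim3 and Cebpd to Tcp11l2, both at 0.258. No gene came close to Zbtb16: its nearest, Tent5c, was at 0.956, where the SD of Zbtb16 itself was 1.52. All distances rest on the same 10 livers and library scaling, and they are descriptions.

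The receptor and its machinery were counted next. Nr3c1, the glucocorticoid receptor, was at 70.8 and 73.3 CPM in WT Fed livers, 65.6, 60.4 and 58.8 in WT Fasting livers and 64.9, 68.2, 67.6, 80.1 and 66.2 in NAMPT LKO livers. It differed by -0.23 on the log2 scale on fasting (adjusted p = 0.29) and by 0.17 between fasted genotypes (adjusted p = 0.837). Of 16 genes of the receptor, its chaperones and steroid handling, 0 were called higher and 4 lower in WT Fasting than in refed WT Fed livers. Their median was -0.21 against 0.04 for all genes, of which 2.68% were called higher and 4.36% lower. The 4 were chaperone genes: Hsp90aa1 (log2 -1.68, adjusted p = 0.0363), Stip1 (-1.36, 0.018), Fkbp4 (-1.18, 0.00421) and Ptges3 (-0.60, 0.0211). All 4 were also lower in NAMPT LKO Fasting than in WT Fed livers, where 6.58% of all genes were called lower. Between the fasted genotypes 0 of 16 were called.

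Hsd11b1, which regenerates active glucocorticoid inside hepatocytes, was at 400.2 and 402 CPM in WT Fed livers, at 491, 484 and 516 in WT Fasting livers and at 472, 356, 323, 456 and 407 in NAMPT LKO livers. The NAMPT LKO values were all lower than the WT Fasting values, with a log2 difference of -0.30 (SE 0.13) and an adjusted p of 0.827. Of all genes, 2.12% lay lower without overlap.

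Among 20 other genes known as glucocorticoid-inducible, 11 were called higher in WT Fasting than in refed WT Fed livers and 0 lower. Of all genes, 2.68% were called higher, 4.36% were called lower and 53.6% had an estimate above 0. All 20 estimates were above 0, with a median of 1.47 against 0.04 for all genes; many of these genes also answer to insulin, glucagon or fatty acids. Igfbp1, an insulin-repressed IGF binding protein, changed most: 1.75 and 0.761 CPM in WT Fed livers and 563, 91.3 and 103 in WT Fasting livers (log2 7.65, SE 1.13, adjusted p = 0.00376). The gluconeogenic genes G6pc (log2 3.21) and Pck1 (1.41), the metallothioneins Mt2 (2.84) and Mt1 (2.33), and Ddit4 (2.54), an mTORC1 inhibitor, rose as well. Angptl4 (2.38), Gadd45b (2.05), Nfkbia (1.22), Errfi1 (0.84) and Per1 (0.73, adjusted p = 0.0399) were the others called.

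Between the fasted genotypes 0 of these 20 were called, with a median of -0.12 and 13 of 20 below 0. Groups lay apart as lower in NAMPT LKO Fasting livers for 2.12% of all genes. Ddit4 (18.7 to 23.5 CPM in WT Fasting and 6 to 17.6 in NAMPT LKO Fasting livers; log2 -1.10, adjusted p = 0.761) and Bcl6, a transcriptional repressor (log2 -1.13, adjusted p = 0.798), had groups apart, both lower. Per1 was at 48.3, 51.2, 43.0, 32.5 and 47.9 CPM in NAMPT LKO livers and at 49.9, 63.6 and 59.3 in WT Fasting livers (log2 -0.37, adjusted p = 0.827). Against WT Fed livers 12 of the 20 were called higher in NAMPT LKO Fasting livers, with a median of 1.43, where 4.65% of all genes were.

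**Figure D4:**
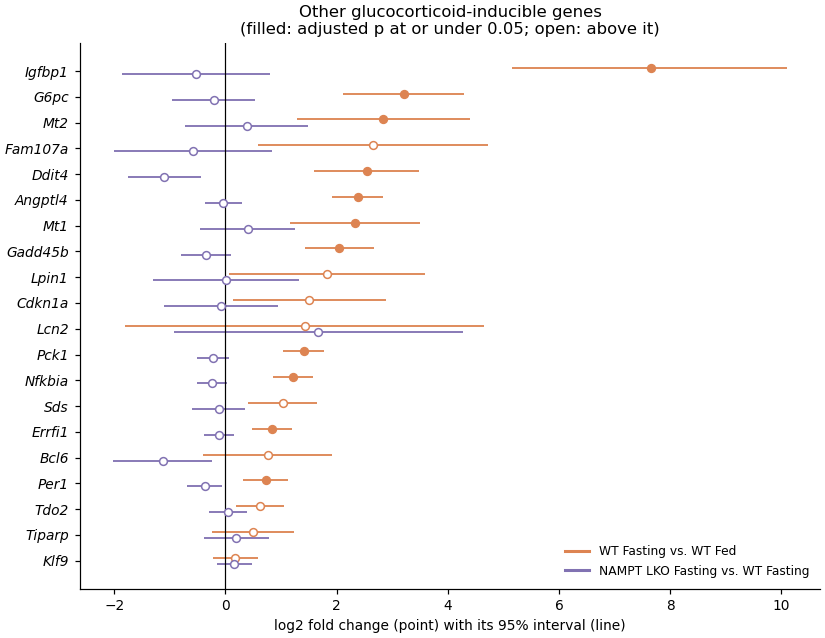
log2 fold change (point) and 95% interval (line) of 20 other glucocorticoid-inducible genes for WT Fasting against WT Fed and for NAMPT LKO Fasting against WT Fasting; filled points passed an adjusted p of 0.05. Igfbp1 lies farthest right at 7.65, 11 genes are filled for fasting, and 0 for genotype.

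Of 11 C/EBP family members, partners and antagonists, Trib3 rose on fasting in WT livers (log2 1.11, adjusted p = 0.0273), and Trib1 (-0.94, adjusted p = 0.0213), a pseudokinase that directs degradation of C/EBPα, and Ddit3 (-1.16, adjusted p = 0.0412), the C/EBP relative CHOP, fell. Of 7 C/EBP-driven hepatocyte genes, including albumin (Alb, log2 0.24, adjusted p = 0.645), 0 were called in any of the 3 comparisons, and the same held for 10 acute phase genes. Immediate early genes gave 1 call of 11 on fasting, Zfp36 (log2 0.83, adjusted p = 0.0436). Clock output genes gave 2 of 12, both lower: Dbp (-1.93, adjusted p = 0.0349) and Per2 (-1.70, adjusted p = 0.0232). Of all genes, 2.68% were called higher on fasting and 4.36% lower. The labels do not give the hour of collection, and the part of the clock in the members' values was not tested.

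Markers of other liver cells were set beside the members. Kupffer cell and macrophage markers summed to 186 to 231 CPM in WT Fed and 241 to 480 in WT Fasting livers, with 8 of 8 estimates above 0 and 0 called. Neutrophil markers stayed at 1.62 to 5.73 CPM in all livers. Bile duct markers summed to 34 to 54.5 CPM in NAMPT LKO livers and 15.2 to 22.4 in WT livers, with 5 of 5 estimates above 0 between the fasted genotypes, 4 of them with ranges apart and an unadjusted p under 0.05 in edgeR's fit, and 0 called. Of all genes, 1.87% lay higher without overlap between the fasted genotypes, and 2.72% were higher with an unadjusted p under 0.05 in edgeR's fit. In NAMPT LKO Fasting against WT Fed livers 2 of 5 bile duct, 1 of 6 endothelial and 1 of 6 stellate cell and fibroblast markers were called higher. The share of all genes called higher there was 4.65%. The part of these cell types in the members' differences was not tested.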

How the data were processed

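Liver RNA of 10 mice was sequenced (poly-A selected, single 50-base reads). The submitters' processing notes name STAR 2.5.1a and featureCounts 1.4.6-p5 on GRCm38, whereas the paper gives other versions; whether counting used strand is not given in the sources used here. The authors deposited, per gene and liver, the count of uniquely aligned reads, CPM (counts scaled to a common library total) and RPKM (CPM per kilobase of exon). Gene positions came with the deposited counts, and symbols were matched by Ensembl gene identifier. GENCODE vM21 gave the gene types, used to find rRNA genes, and GC content.

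From the counts, rRNA genes were dropped, as was any gene that did not exceed 1 CPM in some library. TMM scaling and edgeR 4.0.16's quasi-likelihood test (R 4.3.3) were run on all 10 libraries in one fit, with Benjamini-Hochberg adjustment over 13444 genes; RPKM was used only to compare levels between genes. The paper's voomWithQualityWeights (limma 3.58.1) and DESeq2 1.42.0 were alternatives. The tests were tried on simulated counts for NAMPT LKO Fasting against WT Fasting alone, with 200 genes changed in the NAMPT LKO livers. The other comparisons, and the GC trend of NAMPT LKO mouse 5, were not simulated. The 9 members and all lists were chosen with earlier results of these data known. All members were named; of other lists, genes called were named, else those with the lowest p, plus Nr3c1, Hsd11b1 and Per1. Lpin1, Lcn2 and Alb, and the values by liver of Saa1, Saa2, Mt1, Mt2, Per2 and Dbp, were chosen after the values were seen. Between WT Fasting and NAMPT LKO Fasting livers, same-numbered mice correlated at 0.0924, 0.0964 and 0.0908. Pairs of unlike numbers among mice 1 to 3 were lower, at -0.165 to 0.0404. These are different animals and the labels do not pair them, so numbers were not treated as pairs in the main fit. With library totals of 30603080 to 43434139 counts, counting error is a small share of the value for genes with many reads. It was not always small beside the spread between mice, as for genes with few counts. The same holds for livers as close as the WT Fed pair for Dusp1, at 581 and 554 counts.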

Additional observations from a re-analysis of the deposited data

Results flagged for a closer look

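Among 39 genes, the members and the named list genes, the NAMPT LKO Fasting group of 5 livers was searched for a single liver far from the rest, by its distance from the nearest other liver over the spread of all 5. None of the 9 members exceeded the limit, and 6 other genes did. Chance alone puts about 1 in 20 such groups past it, but 5 of these 6 genes were named after their high values in a single liver were seen, so their number cannot be set against that share. Saa1 and Saa2 are near-identical copies, so the split of reads between them is uncertain. Mouse 3 was the high liver for Saa2 (ratio 0.996), Saa1 (0.989), Lcn2 (0.92), Mt2 (0.894) and Mt1 (0.731), all of which are known to rise in an acute phase response. In that mouse Saa1 was at 3276 CPM, Saa2 at 3154, Lcn2 at 358, Mt1 at 493 and Mt2 at 270, with the next liver at 45.5, 13.2, 35.3, 226 and 84.3 CPM. Nr3c1 was high in mouse 4 (ratio 0.781), at 80.1 CPM against 68.2 in the next liver. WT groups of 2 and 3 livers were too small for this search.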

How the results depend on the processing

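For WT Fasting against WT Fed, 5 members were called. Leaving out 1 liver at a time gave 1 to 5 calls (1, Cebpd, without either WT Fed mouse), and voom, DESeq2 and a fit of those groups alone gave 7, adding Tat and Cebpa. For NAMPT LKO Fasting against WT Fasting, 0 members were called under every alternative but unadjusted p, which gave 4. Against WT Fed, 3 members became 6 with unadjusted p and with voom, 5 with DESeq2, and 1 to 4 leaving out 1 liver. All-gene calls on fasting were 946, and 3331 with voom, 1646 with DESeq2, 1617 with only the groups compared, 1427 with the GC trend removed (chosen after seeing the data), 3002 with unadjusted p and 107 to 786 leaving out 1 liver. Against WT Fed, 1510 became 4281 with voom, 3507 with unadjusted p and 227 to 2835 leaving out 1 liver; between the fasted genotypes 1 became 24 with DESeq2 and the exact test, 17 with no filter, 3 with filterByExpr or the GC trend removed, 2 with library size alone and 811 with unadjusted p. With library size alone, 252 of 979 calls on fasting were higher, against 360 of 946, and 371 of 1422 against WT Fed in NAMPT LKO livers, against 625 of 1510.

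Signs turned for Fkbp5, Zbtb16 and Cebpa, none of which was called in that comparison. With voom, Fkbp5 was at -0.0807 (fasting), 0.0781 (fasted genotypes) and -0.00267 (NAMPT LKO Fasting against WT Fed), and Zbtb16 at 0.0662 between fasted genotypes. With library size alone Fkbp5 was at -0.00266 against WT Fed. Zbtb16 between fasted genotypes was at 0.10 with the GC trend removed and 0.21 without a replicate block among mice 1 to 3. Leaving out 1 liver, Fkbp5 ranged from -0.28 to 0.43 (fasting), -0.34 to 0.38 (fasted genotypes) and -0.0166 to 0.248 (against WT Fed), Zbtb16 from -1.49 to 0.17, -0.54 to 1.23 and -0.76 to 0.0356, and Cebpa between fasted genotypes from -0.0781 to 0.248. The cause was not tested. With the replicate block on mice 1 to 3 of the fasted groups, 0 members and 0 genes were called, as without it in those mice; each mouse correlated best with its own number, at 0.0908 to 0.0964, a hint from the data and not the design. Of the single-member results 379 kept their direction and side of the threshold, 22 lost their call, 17 gained it and 23 turned sign.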
